A study of Mus musculus with 12 samples.

Results

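The collagen chain genes are the genes whose symbol reads Col, a number, a and a number. There were 34 of them among the 14851 genes of the deposited tables, and each encodes 1 of the alpha chains from which collagens are built. They were split by textbook structure into 8 basement membrane chains, 11 fibrillar chains and 15 other chains. Their RNA was measured in 562 cells, a spontaneously immortalized line grown out of cutaneous vascular tumors of a mouse in which tamoxifen and an Scl-Cre transgene had removed floxed Tsc1. There were 3 control libraries, 3 Fip200 KO, 3 Atg5 KO and 3 Atg7 KO libraries, and the study compared each KO with control to see what the block of autophagy changed. The labels give C57BL/6 as the strain, lymphatic endothelial cells as the tissue and wildtype as the control genotype, although the line came from a Tsc1-deleted mouse. Tsc1 RNA was listed at 5.23 to 7.01 RPKM in control and 2.60 to 6.44 in KO libraries, which are whole-gene values that do not check the deletion. All cells went through lentiviral CRISPR-Cas9 vectors and puromycin, with an sgRNA against EGFP in the control. The labels do not tie a library to a clone or to a separate culture, and the p-values measure the spread between these libraries, which may be technical.

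Collagen chains fold in threes into a long helix before they leave the cell. Type IV chains join at their ends into the sheet of the basement membrane, on which endothelial cells sit. Fibrillar chains (types I, II, III, V, XI, XXIV and XXVII) line up into the banded fibers that fibroblasts lay down in connective tissue. The remaining chains make beaded filaments, hexagonal sheets, anchoring fibrils and fibril-bound linkers, or stay in the plasma membrane.

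The 6 type IV genes sit in head-to-head pairs that are read in opposite directions, and the letters around their starts show how close the partners lie. The sequences are RefSeq promoter windows of the build GRCm38.p6, from 250 bases before to 50 bases after the start site, each printed in the direction of its own gene. They are shown for the abundant pair Col4a1 and Col4a2 and for the pair Col4a5 and Col4a6, and a match was found in that table for 26 of the 34 genes. Col4a1 (chr8:11312777-11313076, minus strand) and Col4a2 (chr8:11312555-11312854, plus strand) have start sites 21 bases apart, and the capitals mark the 78 bases that both windows hold, on opposite strands.
Col4a1: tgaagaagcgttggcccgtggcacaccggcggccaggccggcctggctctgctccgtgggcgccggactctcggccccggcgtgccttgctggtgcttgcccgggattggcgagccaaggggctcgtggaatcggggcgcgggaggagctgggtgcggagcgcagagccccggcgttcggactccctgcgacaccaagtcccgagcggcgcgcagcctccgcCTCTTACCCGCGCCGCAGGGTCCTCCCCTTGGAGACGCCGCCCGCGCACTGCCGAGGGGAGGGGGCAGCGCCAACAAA
Col4a2: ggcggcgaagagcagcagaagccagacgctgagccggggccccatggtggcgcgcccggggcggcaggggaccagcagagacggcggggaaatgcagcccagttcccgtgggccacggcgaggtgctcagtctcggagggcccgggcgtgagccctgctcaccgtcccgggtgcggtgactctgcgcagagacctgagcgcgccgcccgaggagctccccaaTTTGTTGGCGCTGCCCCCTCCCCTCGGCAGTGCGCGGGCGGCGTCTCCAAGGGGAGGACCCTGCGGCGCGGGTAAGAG
The start sites of Col4a5 (chrX:141475169-141475468, plus strand) and Col4a6 (chrX:141474027-141474326, minus strand) are 1343 bases apart, so their windows share no base. Here and in Col23a1 (chr11:51289670-51289969, plus strand), a chain described below for its fall in the KO cells, the capitals mark GGGCGG on either strand, the letters of the GC box to which Sp1 can bind.
Col4a5: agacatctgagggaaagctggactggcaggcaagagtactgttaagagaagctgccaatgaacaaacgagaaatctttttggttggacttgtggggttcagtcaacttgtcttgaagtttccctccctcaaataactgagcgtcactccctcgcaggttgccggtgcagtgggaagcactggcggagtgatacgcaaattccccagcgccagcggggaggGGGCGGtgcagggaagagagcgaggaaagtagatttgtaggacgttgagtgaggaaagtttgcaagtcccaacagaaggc
Col4a6: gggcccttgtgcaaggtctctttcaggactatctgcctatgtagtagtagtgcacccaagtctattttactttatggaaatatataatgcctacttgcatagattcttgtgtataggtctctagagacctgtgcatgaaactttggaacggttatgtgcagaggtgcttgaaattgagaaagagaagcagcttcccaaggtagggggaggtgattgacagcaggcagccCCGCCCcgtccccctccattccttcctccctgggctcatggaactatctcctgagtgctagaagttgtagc
Col23a1: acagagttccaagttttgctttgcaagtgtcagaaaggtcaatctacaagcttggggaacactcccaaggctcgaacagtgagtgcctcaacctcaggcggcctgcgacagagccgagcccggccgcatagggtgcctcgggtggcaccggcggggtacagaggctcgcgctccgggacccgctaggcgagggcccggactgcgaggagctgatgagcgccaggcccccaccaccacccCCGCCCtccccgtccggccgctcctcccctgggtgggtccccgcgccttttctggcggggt
GGGCGG was in the windows of 16 of the 26 members (61.5%) and in 35.7% of all 32851 windows. CCAAT was held by 10 of the 26 members (38.5%) and by 37.4% of all windows, and TATAAA by 4 of 26 (15.4%) and by 13.6% of all. None of the 5 printed windows held TATAAA on either strand, and GC content ran from 48.3% in Col4a6 to 74% in Col4a1. These are matches of letters and were not tested for binding.

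Values are RPKM, reads divided by gene length and by the reads of the library, so that levels can be compared between genes. Between 17266926 and 23629730 reads per library fell on the listed genes. The RNA of the targeted gene was called lower in Atg7 KO cells (Atg7, log2 difference −1.97, limma adjusted p = 0.0216) and was not in Fip200 KO (Rb1cc1, −0.74, adjusted p = 0.404) or Atg5 KO cells (Atg5, 0.0029, adjusted p = 0.994). These RNA values do not check the knockouts, which the study checked at the protein level by western blot. The summed RPKM of 10 endothelial markers was 1142 to 2988, lowest in control replicate 2. Robo4, a receptor of endothelial cells, was at 12.2 to 36.0 RPKM in control and was called higher in Atg5 KO (1.66, limma adjusted p = 0.0167) and Atg7 KO cells (1.65, limma adjusted p = 0.0328). Cdh5 and Kdr were called higher in Atg5 KO cells (1.28 and 1.35, limma adjusted p = 0.0376 and 0.0878). The share of all genes called higher was 4.31% for Atg5 KO and 3.29% for Atg7 KO. No other gene of the endothelial list was called, and none was with Fip200 KO. Vwf, also of that list, was at 0.227, 0.809 and 0.206 RPKM in control and at most 0.223 in the KO libraries. The part of the endothelial markers in the collagen results was not tested. Of 4 lymphatic markers, Lyve1, Pdpn and Flt4 were at 31.7 RPKM or more in every library, and Prox1 was between 0.0366 and 5.79 RPKM. Lyve1 was called higher in Atg5 KO (log2 difference 1.25, limma adjusted p = 0.048) and Atg7 KO cells (1.11, limma adjusted p = 0.0947). Of 4 leukocyte markers, Ptprc, Adgre1 and Csf1r had a mean under 0.5 RPKM in every group. The fourth, Cd68, was at 34.4 to 91.7 RPKM in control and reached 263 in Fip200 KO replicate 1, and it was called lower in Atg5 KO (−2.26, limma adjusted p = 0.0064) and Atg7 KO cells (−1.70, limma adjusted p = 0.0798). Control replicate 2 was the highest library for the fibroblast markers Dcn, Pdgfra and Fap, but not for Pi16. Over 6 fibroblast genes the sum was 5.31 to 70.7 RPKM in the control and at most 2.75 in the KO libraries, and Dcn was at 0.125, 56.9 and 15.3 RPKM in control replicates 1, 2 and 3. Pi16 was at 5.05, 2.66 and 7.33 RPKM there, and it was called lower in Atg5 KO (−1.34, limma adjusted p = 0.0335) and Atg7 KO cells (−2.37, limma adjusted p = 0.0244). Of the defining fibroblast markers, Dpt and Twist1 had a control mean under 0.5 RPKM. Library names began with 1 of 3 prefixes. Control replicate 1 shared its prefix with the 3 Fip200 KO libraries, control replicates 2 and 3 with Atg5 KO replicates 1 and 2, and the 3 Atg7 KO libraries with Atg5 KO replicate 3. Atg7 KO and the prefix therefore cannot be told apart within 1 prefix.

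Most collagen RNA in 562 cells came from basement membrane chains. The 8 basement membrane chains made up 71.6% to 99.2% of the summed collagen RPKM of a library, and Col4a1 and Col4a2 by themselves 62.0% to 87.3%. Col4a1 ranked between 43 and 197 among all genes. Summed over the 34 genes, collagen RPKM was 1318, 1457 and 1329 in the control libraries. The Fip200 KO libraries had 654, 867 and 784. The Atg5 KO libraries had 1030, 1020 and 895, and the Atg7 KO libraries 642, 1720 and 607. The sums of Fip200 KO and Atg5 KO libraries lay below every control library, and Atg7 KO replicate 2 lay above them all. As a share of reads, collagen RNA took 0.847% to 0.906% in control, 0.429% to 0.562% with Fip200 KO, 0.583% to 0.668% with Atg5 KO and 0.396% to 1.11% with Atg7 KO. In such bulk samples, fewer cells that make a collagen and less RNA per cell cannot be told apart.

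**Figure D1:**
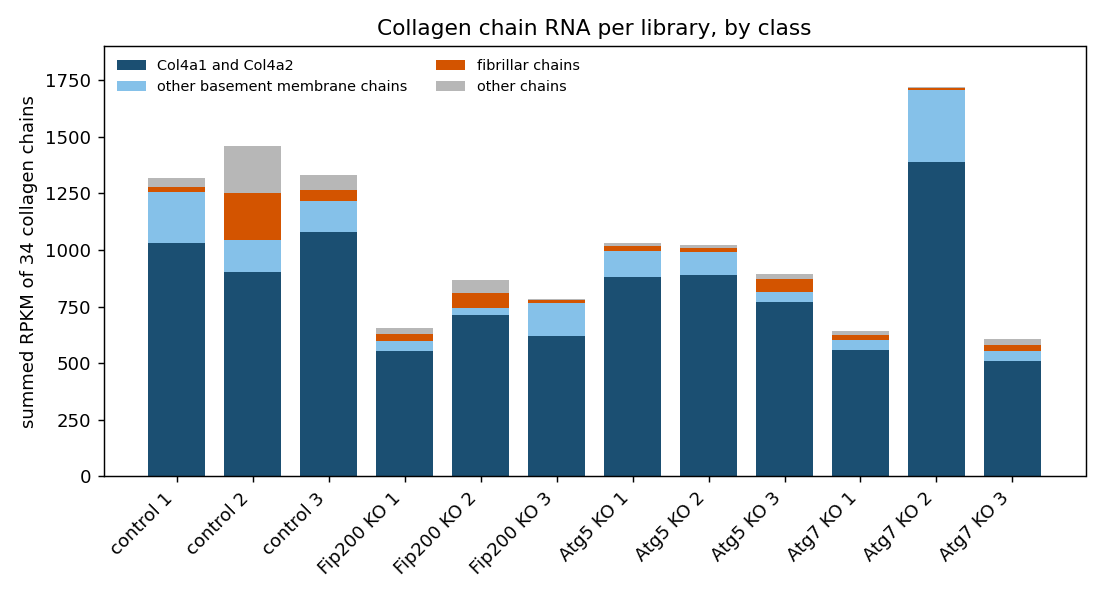
Summed RPKM of the 34 collagen chain genes in each of the 12 libraries, stacked by class. Col4a1 and Col4a2 fill most of every bar, control replicate 2 has the largest fibrillar and other shares (14.2% each), and Atg7 KO replicate 2 has the highest sum (1720).

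Genes were tested where they had at least 0.5 RPKM in at least 3 of the 6 libraries compared. limma's moderated test was run on log2 of RPKM plus 0.5, and a gene was called where the adjusted p did not exceed 0.1 and the log2 difference reached 1 in size. A log2 difference on this scale understates the change of a low gene. Of the 34 chains, 16 were tested in each of the 3 comparisons, Col20a1 only in Fip200 KO, Col1a2 only in Atg7 KO and 16 in none. The 3 comparisons use the same control libraries, so their values stand side by side below and are not independent.

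In Fip200 KO cells, 1 of 17 tested chains was called lower, Col23a1, where 1.64% of all 11803 genes tested were called lower. No chain was called higher, where the share of all genes was 0.347%, and 7 chains had an unadjusted p under 0.05 in either direction, as had 16.1% of all genes. The voom fit on recovered reads also called Col23a1 alone, against 1.46% of all genes called lower and 0.22% called higher. The KO libraries lay below all control libraries for 6 chains (12.4% of all genes) and above them for 1 (11.7% of all genes). The median log2 difference of the tested chains was −0.79, against 0.016 over all genes tested.

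In Atg5 KO cells, 5 of 16 tested chains were called lower, namely Col4a5, Col4a6, Col5a3, Col8a1 and Col23a1, against 6.94% of all 11833 genes tested. None was called higher, where 4.31% of all genes were. With either sign, 6 chains had an unadjusted p under 0.05, as had 43.8% of all genes. In the voom fit 6 chains were called, these 5 and Col9a3, all lower, against 8.62% of all genes called lower and 5.09% called higher. Libraries did not overlap for 7 chains that were lower (22% of all genes) and for 0 that were higher (28.4% of all genes). The median log2 difference was −0.88 for the tested chains and 0.056 for all genes.

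In Atg7 KO cells, 4 of 17 tested chains were called lower (Col4a5, Col4a6, Col5a3 and Col23a1), against 6.81% of all 11784 genes tested. The 1 chain called higher was Col1a2, against 3.29% of all genes. An unadjusted p under 0.05 was found for 7 chains and for 33.7% of all genes. The 5 called chains were also called by voom, which called 7.87% of all genes lower and 4.31% higher. Libraries did not overlap for 5 chains that were lower (20.4% of all genes) and for 2 that were higher (19.2% of all genes). The median was −0.83, and −0.0080 over all genes. Col4a6 in Atg5 KO and Col1a2 in Atg7 KO cells reached the filter through 1 group alone, so that their tests could only come out on that side. Both were also called when no filter was used.

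**Figure D2:**
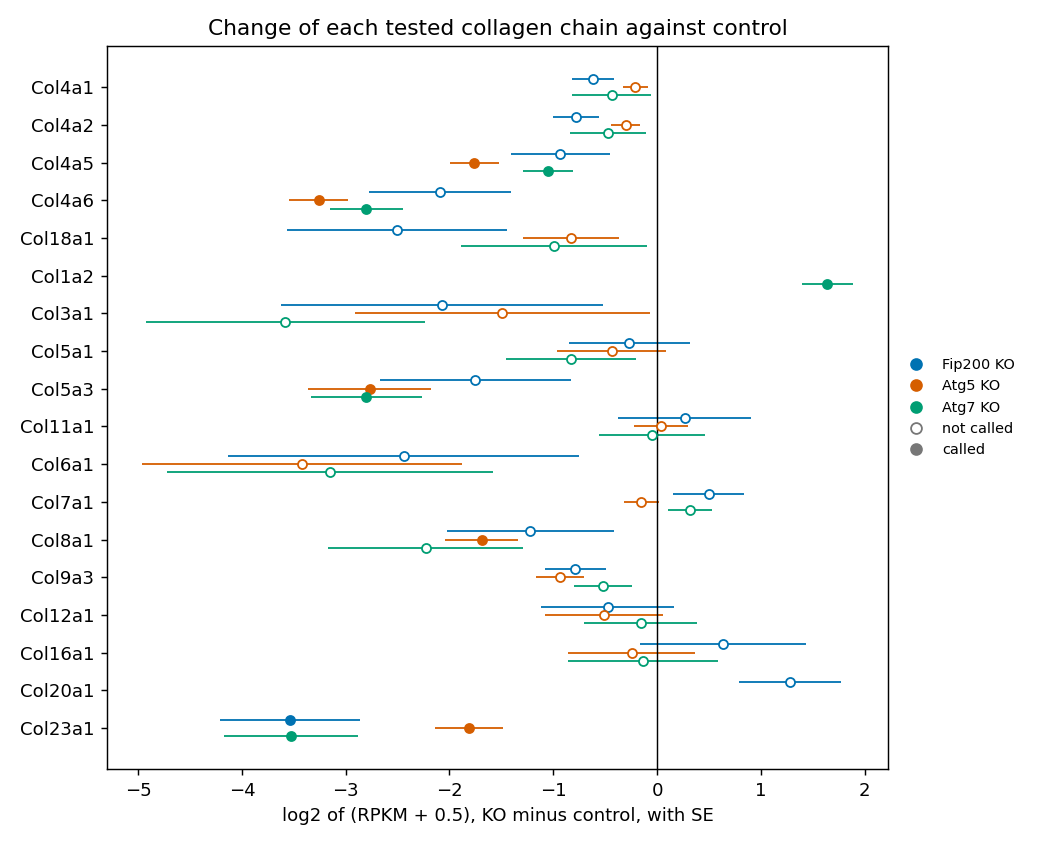
Log2 difference of RPKM plus 0.5 between each KO and control, with its standard error, for the 18 collagen chains tested in at least 1 comparison. Filled points were called (limma adjusted p up to 0.1, log2 difference of 1 or more in size) and lie at −1.05 or lower, except Col1a2 at 1.64 in Atg7 KO cells.

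Col4a1 and Col4a2 (gene IDs 12826 and 12827) encode the chains of the ubiquitous type IV network, in which alpha1 chains outnumber alpha2. Col4a1 had RPKM values of 596, 506 and 625 in control, 339.7, 391.5 and 393 with Fip200 KO, 505, 508 and 476 with Atg5 KO, and 341, 806 and 275.5 with Atg7 KO. The Fip200 KO libraries were the lower group without overlap, and Atg7 KO replicate 2 exceeded every control. Col4a2 was at 435, 397.5 and 456 RPKM in control, 216, 319 and 226 with Fip200 KO, 376, 383 and 292 with Atg5 KO, and 218, 581 and 233 with Atg7 KO. Its Fip200 KO and Atg5 KO libraries both lay below control. The ratio of Col4a1 to Col4a2 stayed between 1.18 and 1.74 in the 12 libraries, but the libraries did not stand in the same order for both genes. Atg7 KO replicate 1 was above replicate 3 for Col4a1 and below it for Col4a2. In Fip200 KO cells the log2 difference was −0.62 for Col4a1 (standard error, SE, 0.203, limma adjusted p = 0.212) and −0.78 for Col4a2 (SE 0.224, limma adjusted p = 0.173), and neither passed. The Atg5 KO values were −0.21 and −0.30 (limma adjusted p = 0.222 and 0.142), and those of Atg7 KO −0.44 and −0.47 (limma adjusted p = 0.455 and 0.398). The Atg7 KO values were −0.90 and −0.93 without Atg7 KO replicate 2 (limma adjusted p = 0.0228 and 0.0148), short of the fold threshold, and that of Col4a1 was −0.13 without replicate 3 and that of Col4a2 −0.22 without replicate 1. Both genes lie on chromosome 8, where other genes were lower too. The median log2 difference over its 624 tested genes was −0.37 with Fip200 KO and −0.37 with Atg5 KO, and over 623 genes it was −0.38 with Atg7 KO. The 20 tested genes around Col4a1 had medians of −0.32, −0.38 and −0.34 respectively, and their part in the result was not tested.

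Col4a5 and Col4a6 (gene IDs 12830 and 94216) lie on chromosome X and encode chains of the type IV networks found in kidney, skin and smooth muscle. Col4a5 stood at 35.0, 26.3 and 34.6 RPKM in control, 25.25, 24.5 and 6.95 with Fip200 KO, 7.39, 7.57 and 13.03 with Atg5 KO, and 11.04, 15.1 and 20.3 with Atg7 KO. All 9 KO libraries lay below the lowest control, by little in Fip200 KO replicates 1 and 2. The mean RPKM of Col4a5 was 32.0 ± 4.94 (SD, n = 3) in control and 9.33 ± 3.21 (SD, n = 3) in Atg5 KO cells, 3.43-fold lower. The log2 difference was −1.76 (SE 0.239, limma adjusted p = 0.00579). In Atg7 KO cells the mean was 15.5 ± 4.63 (SD, n = 3), with a log2 difference of −1.05 (SE 0.244, limma adjusted p = 0.035). That call lay close to the threshold of 1 and was lost without control replicate 1 (−0.98), control replicate 3 (−0.99) or Atg7 KO replicate 1 (−0.84). It was also lost with all 12 libraries in 1 fit (−1.05, limma adjusted p = 0.132) and with the library prefix as a term (−1.75, limma adjusted p = 0.549). In Fip200 KO cells the value was −0.93 (SE 0.478, limma adjusted p = 0.383), and −0.34 without Fip200 KO replicate 3.

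Col4a6 was lower in the KO libraries by a wider margin than its neighbor. It had RPKM values of 3.48, 7.97 and 5.87 in control, 3.36, 0.822 and 0.0480 with Fip200 KO, 0.117, 0.153 and 0.111 with Atg5 KO, and 0.105, 0.470 and 0.590 with Atg7 KO. Fip200 KO replicate 1 reached almost the lowest control library, and replicate 3 fell to 7 reads. The log2 difference was −3.26 in Atg5 KO (SE 0.283, limma adjusted p = 0.00305), −2.80 in Atg7 KO (SE 0.352, limma adjusted p = 0.00967) and −2.09 in Fip200 KO cells (SE 0.684, limma adjusted p = 0.21). The Fip200 KO value was called with all 12 libraries in 1 fit (limma adjusted p = 0.0638), and it was −1.41 without Fip200 KO replicate 3. Without any 1 of the control libraries, Col4a6 no longer reached the filter in the Atg5 KO comparison and was not tested there. In mean RPKM these groups were 45.4, 14.9 and 4.09-fold lower than control. Control held 3.29 to 10 Col4a5 RPKM for each of Col4a6, against 49.4 to 117 in Atg5 KO and 32.1 to 106 in Atg7 KO libraries. The Fip200 KO libraries held 7.51, 29.9 and 145, with replicate 1 inside the control range. The ratio of Col4a5 to Col4a6 thus ranged more widely than that of Col4a1 to Col4a2. The median log2 difference over the tested genes of chromosome X was −0.31 with Fip200 KO, −0.39 with Atg5 KO and −0.31 with Atg7 KO. The 20 tested genes around Col4a5 had medians of −0.067, −0.31 and −0.079 in that order. Col4a3 and Col4a4, the pair on chromosome 1, stayed at or under 0.0776 RPKM in every library.

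Col18a1 (gene ID 12822) encodes the chain whose end is released as endostatin, an inhibitor of vessel growth, and had the third highest mean of the chains in control, although Col3a1 and Col6a1 exceeded it in control replicate 2. It had RPKM values of 186, 105 and 94.8 in control, 12.1, 5.34 and 138 with Fip200 KO, 106, 91.1 and 33.7 with Atg5 KO, and 32.0, 304 and 23.7 with Atg7 KO. Within Fip200 KO and within Atg7 KO, 1 library stood far above the other 2. The log2 difference was −2.51 in Fip200 KO (SE 1.06, limma adjusted p = 0.305), −0.83 in Atg5 KO (limma adjusted p = 0.21) and −0.99 in Atg7 KO cells (limma adjusted p = 0.471), and none was called. Without Fip200 KO replicate 3 the first became −3.85 (limma adjusted p = 0.0153), and without Atg7 KO replicate 2 the last became −2.14 (limma adjusted p = 0.0138). Over all alternative settings the values ranged from −3.85 to −1.56, from −1.14 to −0.020 and from −2.14 to 0.84 in that order. The Atg7 KO value was 0.84 with the library prefix as a term. Col15a1, the related multiplexin, stayed at or under 0.0365 RPKM.

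**Figure D3:**
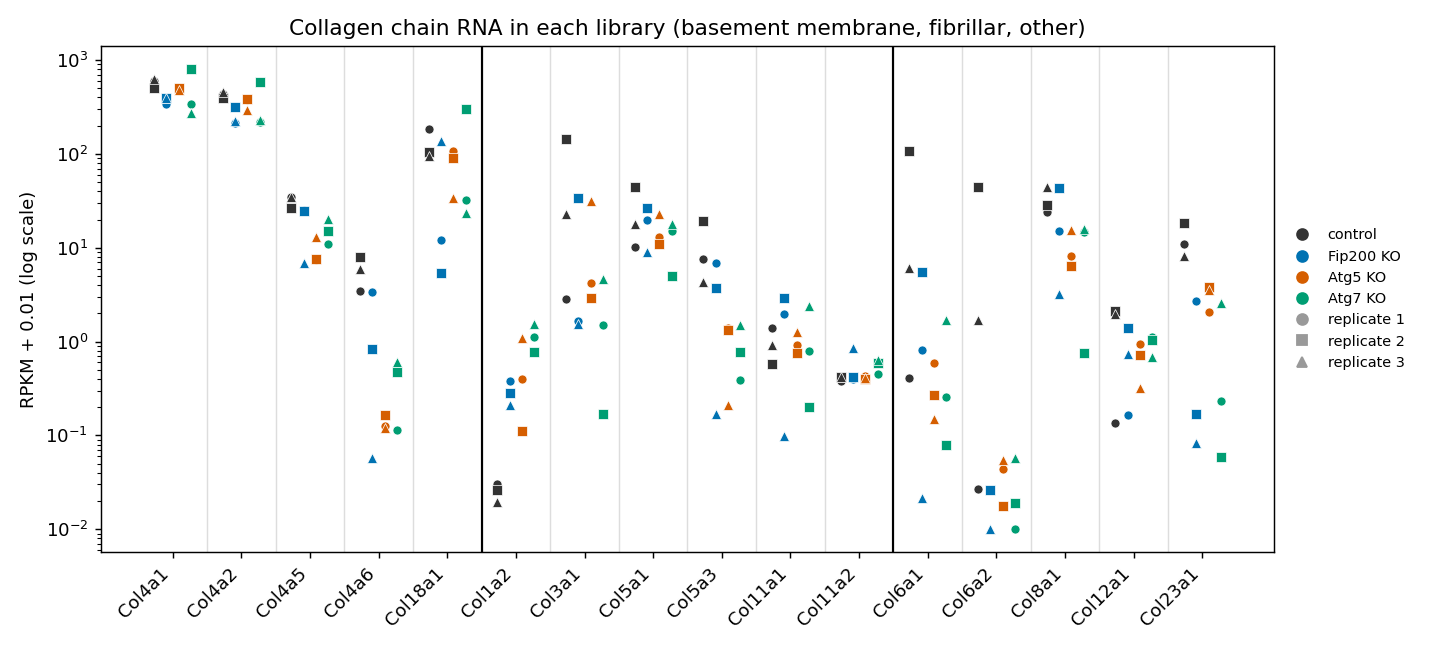
RPKM plus 0.01 on a log scale in the 12 libraries for the 5 chains of each class with the highest control mean and for every called chain. Vertical lines part basement membrane, fibrillar and other chains. Col4a5, Col4a6 and Col23a1 have all 9 KO libraries below the lowest control, while Col3a1, Col6a1 and Col6a2 spread most within control.

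Among the fibrillar chains, Col5a1, Col5a3 and Col3a1 were expressed in control, and Col5a2 and the type I genes were near 0 there. Col5a1 (gene ID 12831) encodes the chain that starts and limits collagen fibrils. It stood at 10.2, 44.2 and 18.1 RPKM in control, 19.6, 26.5 and 8.92 with Fip200 KO, 12.98, 10.9 and 22.8 with Atg5 KO, and 15.3, 4.93 and 18.0 with Atg7 KO. The groups overlapped throughout, with log2 differences of −0.27, −0.44 and −0.83 and a smallest adjusted p of 0.385 from limma. Col5a2, its partner in the common type V molecule, was at or under 0.345 RPKM in every library.

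Col5a3 (gene ID 53867), the third type V chain, was the called fibrillar chain that was lower. Its RPKM was 7.56, 19.1 and 4.29 in control, 6.79, 3.68 and 0.160 with Fip200 KO, 1.39, 1.31 and 0.199 with Atg5 KO, and 0.379, 0.769 and 1.5 with Atg7 KO. The Atg5 KO and Atg7 KO libraries all lay below the lowest control, while Fip200 KO replicate 1 lay within the control range. The log2 difference was −2.77 in Atg5 KO (SE 0.59, limma adjusted p = 0.0169), −2.80 in Atg7 KO (SE 0.537, limma adjusted p = 0.0229) and −1.75 in Fip200 KO cells (limma adjusted p = 0.394), the last being −0.72 without Fip200 KO replicate 3. Control replicate 2 held 61.8% of the summed control RPKM of Col5a3, and both calls were also made without it.

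Col3a1 (gene ID 12825), the chain of type III collagen in vessel walls and loose connective tissue, varied widely within the groups. It was at 2.82, 143 and 23.1 RPKM in control, 1.64, 34.3 and 1.55 with Fip200 KO, 4.18, 2.91 and 31.3 with Atg5 KO, and 1.49, 0.158 and 4.59 with Atg7 KO. Control replicate 2 held 84.7% of the control sum. The log2 differences of −2.07, −1.49 and −3.58 had adjusted p of 0.529, 0.45 and 0.112 from limma. Without control replicate 1, the last became −4.95 and was called (limma adjusted p = 0.0421). Without control replicate 2, the 3 differences were −0.73, −0.15 and −2.24 (limma adjusted p = 0.893, 0.94 and 0.25).

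Col1a2 (gene ID 12843) encodes the alpha2 chain of type I collagen, the main protein of bone and tendon. It had 2, 2 and 1 reads in the control libraries. Its RPKM was 0.0202, 0.0162 and 0.0097 in control, 0.367, 0.276 and 0.201 with Fip200 KO, 0.387, 0.102 and 1.08 with Atg5 KO, and 1.11, 0.756 and 1.54 with Atg7 KO. Every KO library was above every control library. In Atg7 KO cells the log2 difference was 1.64 (SE 0.247, limma adjusted p = 0.0134). Atg5 KO replicate 3, which shares the prefix of the Atg7 KO libraries, was above Atg7 KO replicate 2, and with the prefix as a term the difference was 0.53 (limma adjusted p = 0.768). With any 1 of the Atg7 KO libraries left out, Col1a2 no longer reached the filter and was not tested. The summed RPKM of 8 mural cell markers was 3.18 to 5.74 in control, 3.09 to 21.8 with Fip200 KO, 9.71 to 15.7 with Atg5 KO and 3.80 to 64.5 with Atg7 KO. Tagln, an actin-binding protein of smooth muscle, was at 0.454 to 2.23 RPKM in control and 51.1, 2.42 and 28.4 in Atg7 KO libraries and was called higher (limma adjusted p = 0.0747). Tagln and Acta2 were called higher in Atg5 KO cells (2.12 and 1.496, limma adjusted p = 0.0136 and 0.0499). Of all genes, 4.31% were called higher with Atg5 KO and 3.29% with Atg7 KO. Of the 8 mural genes, Rgs5, Cspg4, Des, Cnn1 and Myh11 had a mean under 0.5 RPKM in every group. Pdgfrb went the other way, at 0.0188, 4.19 and 0.261 RPKM in control and at most 0.1945 in the KO libraries. The part of the mural markers in the result was not tested. Col1a1, the other type I chain, was at most 0.0785 RPKM in control and between 0.2496 and 0.413 in Atg7 KO libraries. It was not tested.

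Col11a1 and Col11a2, which encode type XI chains best known from cartilage, were low throughout, Col11a1 between 0.0887 and 2.91 RPKM and Col11a2 between 0.367 and 0.835. The log2 differences of Col11a1 were 0.27 with Fip200 KO, 0.042 with Atg5 KO and −0.047 with Atg7 KO, with a smallest adjusted p of 0.864 from limma, and their sign depended on the setting.

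Col6a1 and Col6a2 (gene IDs 12833 and 12834) are neighbors on chromosome 10 and encode chains of the beaded filaments that fibroblasts spin around cells. Col6a1 had RPKM values of 0.398, 108 and 6.15 in control, 0.812, 5.51 and 0.0115 with Fip200 KO, 0.586, 0.256 and 0.140 with Atg5 KO, and 0.248, 0.0689 and 1.70 with Atg7 KO. Col6a2 had 0.0171, 44.4 and 1.67 RPKM in control and at most 0.0477 in each KO library, that is at most 6 reads there against 6479 reads in control replicate 2. Both were high in control replicate 2, next in replicate 3 and low in replicate 1, the order in which Dcn stood. Pdgfra was at 0.113, 9.02 and 2.26 RPKM and Pdgfrb at 0.0188, 4.19 and 0.261 RPKM in the same 3 libraries. Their part in the result was not tested. The log2 difference of Col6a1 was −2.44 with Fip200 KO, −3.42 with Atg5 KO and −3.15 with Atg7 KO (limma adjusted p = 0.495, 0.134 and 0.202). Control replicate 2 held 94.3% of the control sum of Col6a1 and 96.3% of that of Col6a2, which did not reach the filter. In the fit without a filter, Col6a2 had −2.86, −2.81 and −2.83 in the same order (limma adjusted p = 0.41, 0.22 and 0.254) and was not called. Without control replicate 1, Col6a1 was called lower with Atg5 KO (−5.06, limma adjusted p = 0.0233) and with Atg7 KO (−4.78, limma adjusted p = 0.0585). Without control replicate 2, its Fip200 KO value was −0.62 (limma adjusted p = 0.894), and it no longer reached the filter in the Atg5 KO and Atg7 KO comparisons. Of the 34 chains, 9 were highest in control replicate 2 among all 12 libraries, as were 14.5% of all genes.

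**Figure D4:**
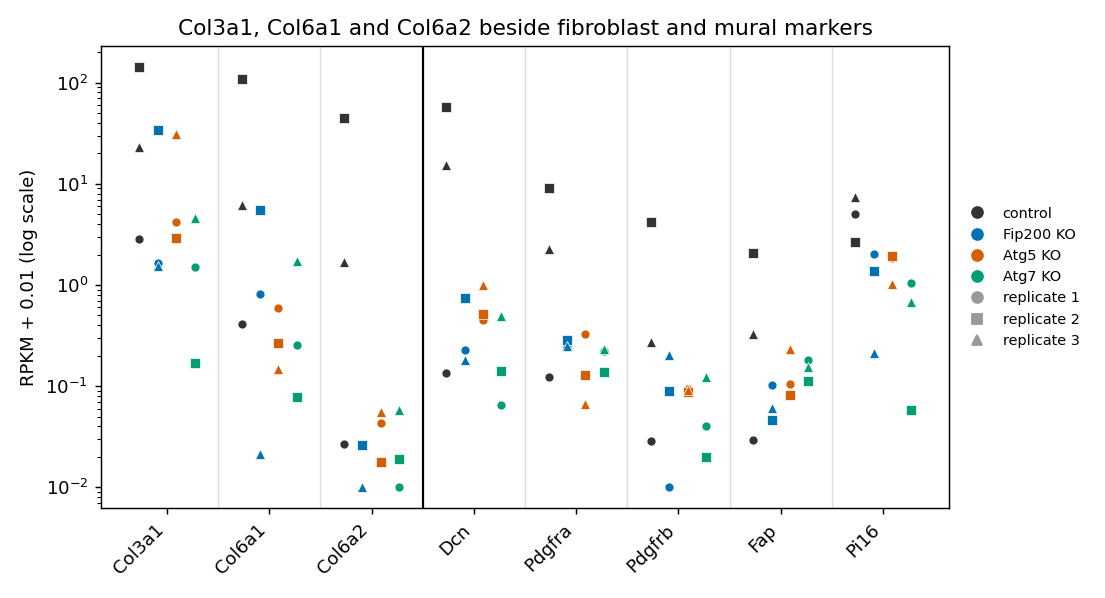
RPKM plus 0.01 on a log scale in the 12 libraries for Col3a1, Col6a1 and Col6a2 (left of the line), the fibroblast markers Dcn, Pdgfra, Fap and Pi16 and the mural marker Pdgfrb. Control replicate 2 is the highest library for every gene shown except Pi16, with Col6a1 at 108 and Dcn at 56.9. Control replicate 1 sits among the KO libraries, except that it lies below them for Fap and above them for Pi16.

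Col23a1 (gene ID 237759) encodes a transmembrane collagen whose outer part can be shed. It had RPKM values of 10.97, 18.4 and 8.24 in control, 2.70, 0.158 and 0.0724 with Fip200 KO, 2.04, 3.84 and 3.503 with Atg5 KO, and 0.225, 0.0484 and 2.60 with Atg7 KO. Every KO library lay below every control library, the closest at 3.84 against 8.24. The mean fell from 12.6 ± 5.28 (SD, n = 3) in control to 3.13 ± 0.957 (SD, n = 3) in Atg5 KO cells. The log2 difference was −3.54 in Fip200 KO (SE 0.673, limma adjusted p = 0.0823), −1.81 in Atg5 KO (SE 0.329, limma adjusted p = 0.011) and −3.53 in Atg7 KO cells (SE 0.646, limma adjusted p = 0.0208). In Fip200 KO cells the call was lost without control replicate 1, 2 or 3 (limma adjusted p = 0.188, 0.352 and 0.413) or Fip200 KO replicate 2 (limma adjusted p = 0.188), while the difference stayed between −3.79 and −3.19 in these 4 fits. In Atg5 KO cells it was lost with all 12 libraries in 1 fit (limma adjusted p = 0.125). Col13a1, a related transmembrane chain, reached 1.43 RPKM in control replicate 1 and at most 0.658 elsewhere, and Col17a1 at most 0.0964.

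Col8a1 (gene ID 12837) encodes a short chain of the hexagonal sheets under endothelium, known from the cornea and from injured vessels. It stood at 24.1, 28.3 and 44.9 RPKM in control, 15.05, 43.4 and 3.24 with Fip200 KO, 8.25, 6.37 and 15.3 with Atg5 KO, and 14.8, 0.751 and 15.8 with Atg7 KO. Atg5 KO and Atg7 KO libraries lay below control without overlap, while Fip200 KO replicate 2 was close to the highest control. The log2 difference was −1.69 in Atg5 KO cells (SE 0.351, limma adjusted p = 0.0158), which was called. With all 12 libraries in 1 fit that call was lost (limma adjusted p = 0.279). In Atg7 KO cells it was −2.23 (SE 0.939, limma adjusted p = 0.145), and −1.01 without Atg7 KO replicate 2 (limma adjusted p = 0.0462). In Fip200 KO cells it was −1.22 (limma adjusted p = 0.48), with −2.06 without Fip200 KO replicate 2 and −0.28 without replicate 3.

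The linker collagens that sit on fibrils (FACIT) were low. Col12a1 was between 0.126 and 2.10 RPKM, with log2 differences of −0.48, −0.51 and −0.16. Its Atg5 KO value was −1.18 and called without control replicate 1 (limma adjusted p = 0.0281) and −0.16 without control replicate 2 (limma adjusted p = 0.872). Chosen after their values were seen, Col9a3, Col20a1 and Col7a1 complete the tested chains whose libraries did not overlap. Col9a3 was at 0.922 to 1.80 RPKM in control, 0.349 to 0.705 in Fip200 KO and 0.324 to 0.536 in Atg5 KO libraries. In Atg5 KO cells its log2 difference of −0.94 had a limma adjusted p of 0.0262 and fell short of the fold threshold. There, Col9a3 was called with a pseudocount of 0.1, with voom, without control replicate 2 and without Atg5 KO replicate 3. Col20a1 was at 0.193 to 0.680 RPKM in control and 0.685 to 3.70 in Fip200 KO libraries, a log2 difference of 1.28 that was not called. Col7a1, the anchoring fibril chain, was at 0.803 to 0.946 RPKM in control and 0.957 to 1.51 in Atg7 KO libraries, a log2 difference of 0.32 that was not called.

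By class, the tested basement membrane chains had median log2 differences of −0.93 for Fip200 KO, −0.83 for Atg5 KO and −0.99 for Atg7 KO. Of 5 tested, 0, 2 and 2 were called lower, beside 1.64%, 6.94% and 6.81% of all genes. The Atg5 KO count and median include Col4a6, whose test there could only come out lower. In the Fip200 KO comparison 4 of the 5 tested chains had an unadjusted p under 0.05 (16.1% of all genes), and limma's voom on recovered reads also called 0. Of the fibrillar chains 0 of 4, 1 of 4 and 1 of 5 were called lower and 1 was called higher, with Atg7 KO (3.29% of all genes). The chain called higher was Col1a2, whose test there could only come out higher. Of the other chains 1 of 8, 2 of 7 and 1 of 7 were called lower. The medians of the fibrillar chains were −1.01, −0.96 and −0.83, and those of the other chains −0.63, −0.94 and −0.52. Among the 16 chains tested in no comparison, 12 stayed under 0.5 RPKM in every library, with Col1a1 the highest at 0.476. The other 4 were Col6a2, Col11a2, Col13a1 and Col22a1.

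Differences between KO groups were tested in 1 fit of all 12 libraries, in which 19 chains were tested. No chain was called for Atg5 KO against Fip200 KO, for Atg7 KO against Fip200 KO or for Atg7 KO against Atg5 KO, and neither was any of the 12233 genes tested (0% in each). Over the 3 contrasts, 7 values of a chain had an unadjusted p under 0.05 by limma, as had 7.58%, 7.49% and 4.59% of all genes, and the voom fit also called 0. Col23a1 was higher in Atg5 KO than in Fip200 KO cells by a log2 of 1.73 (SE 0.721, limma adjusted p = 0.627). For Col4a6 the difference between Atg5 KO and Fip200 KO cells was −1.17 (SE 0.568, limma adjusted p = 0.654), and for Col4a5 −0.83 (SE 0.434, limma adjusted p = 0.654). A chain called in 1 KO and not in another was thus not shown to differ between them. Without Fip200 KO replicate 3, 4 differences were called: Col4a5, Col4a6 and Col20a1 were lower than in Fip200 KO cells, Col20a1 in 2 contrasts. In that fit 2.46% of all genes were called for Atg5 KO against Fip200 KO and 3.3% for Atg7 KO against Fip200 KO.

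Within 1 library prefix, the Fip200 KO libraries could be set against control replicate 1 and Atg5 KO replicates 1 and 2 against control replicates 2 and 3. The log2 differences of Col23a1 were −3.43 and −1.95 there, those of Col4a6 −1.5 and −3.53, and those of Col4a5 −1.07 and −1.94. Col5a3 had −1.57 and −2.39, and Col8a1 −0.85 and −2.22. For Col3a1 and Col6a1, the sign in Fip200 KO cells turned (0.69 and 0.83), while the Atg5 KO values were −3.86 and −4.89. With the prefix as a term in the fit of all 12 libraries, the Fip200 KO comparison called 0 chains, the Atg5 KO comparison 3 (Col4a5, Col4a6 and Col6a1) and the Atg7 KO comparison 0. In the same fit 0.384%, 5.42% and 0.311% of all genes were called in either direction. At an unadjusted p under 0.05 there were 2, 6 and 3 chains, beside 7.17%, 21.1% and 9.62% of all genes. Of the Atg5 KO calls, Col5a3 (−2.39), Col8a1 (−2.22) and Col23a1 (−1.95) were lost, with a limma adjusted p of 0.226, 0.359 and 0.283. All 5 Atg7 KO calls were lost. The log2 differences there were −1.75 for Col4a5, −3.04 for Col4a6, −3.86 for Col23a1, −1.49 for Col5a3 and 0.53 for Col1a2, with a limma adjusted p of 0.549, 0.434, 0.451, 0.807 and 0.768. The last 2 were smaller in size than without the term (−2.80 and 1.64).

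The genes that modify, fold, export, process and bind collagen were read from 5 textbook lists of 64 genes, of which 58 were in the tables. With Fip200 KO, 0 of the 48 that could be tested were called (1.64% of all genes were called lower and 0.347% higher), with 6 at an unadjusted p under 0.05 and 0 called by voom. With Atg5 KO, 5 of 48 were called lower and 1 was called higher, against 6.94% and 4.31% of all genes. With Atg7 KO, 5 of 47 were called lower and 0 higher, against 6.81% and 3.29% of all genes. The median log2 difference of the tested genes was −0.19, −0.18 and −0.16, and over all genes 0.016, 0.056 and −0.0080.

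Of the 18 tested genes for hydroxylation and folding in the endoplasmic reticulum, 3 were called lower with Atg5 KO and 3 with Atg7 KO, beside 6.94% and 6.81% of all genes. An unadjusted p under 0.05 was found for 8 and 7 of them, beside 43.8% and 33.7% of all genes. P3h2, a prolyl 3-hydroxylase that acts on type IV chains, was at 5.74 to 9.71 RPKM in control and 0.885 to 1.80 in Atg5 KO libraries (log2 difference −2.08, limma adjusted p = 0.00529). P3h3 was at 12.2 to 22.8 RPKM in control, with log2 differences of −2.09 in Atg5 KO (limma adjusted p = 0.0228) and −1.85 in Atg7 KO cells (limma adjusted p = 0.0284). Tmem38b, a cation channel of the endoplasmic reticulum, had −1.07 and −1.60 in the same cells (limma adjusted p = 0.076 and 0.025). P4ha3, a prolyl 4-hydroxylase subunit, was called in Atg7 KO cells (−1.26, limma adjusted p = 0.0697). None of the 7 tested secretion genes was called in a KO by limma or voom, and 0 had an unadjusted p under 0.05 in any of them, beside 16.1%, 43.8% and 33.7% of all genes with Fip200 KO, Atg5 KO and Atg7 KO.

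Of 8 tested genes for propeptide processing and crosslinking, Loxl4, a lysyl oxidase, was the 1 gene called lower in Atg5 KO cells (−1.31, limma adjusted p = 0.0268), where 6.94% of all genes were. Among 7 tested collagen receptors, Adgrg1, a receptor for type III collagen, was at 48.6 to 57.5 RPKM in control, 23.6 to 25.9 in Atg5 KO and 17.1 to 27.6 in Atg7 KO libraries. It was called lower in both (−1.09, adjusted p = 0.00372, and −1.25, limma adjusted p = 0.0157). Ddr1, a receptor tyrosine kinase for collagens, was called lower in Atg7 KO cells (−1.35, limma adjusted p = 0.0734), where 6.81% of all genes were. Among the partners of basement membranes and fibrils, 1 of 8 tested was called higher in Atg5 KO cells, beside 4.31% of all genes. It was Bgn, a small proteoglycan that binds fibrils, at 0.877 to 7.84 RPKM in control and 29.8 to 39.1 in Atg5 KO libraries (3.78, limma adjusted p = 0.0102).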

How the data were processed

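The RNA of 562 cells was sequenced in 4 groups, control and KO of Fip200, Atg5 or Atg7, with 3 libraries each that the study calls independent replicates. Directional libraries were made from total RNA. The authors aligned adapter-trimmed reads with TopHat2, counted them on known transcripts and compared groups with edgeR. The genome build, annotation and versions are not given in the sources used here. The 3 tables that the authors deposited hold RPKM per library, with no stated scaling between libraries. They also hold a signal, the group means of scaled reads that the authors deposited, and the ratio of these means, its log2 and a p-value, also deposited by the authors. The last 3 were not used. The group means served only to find the reads behind each RPKM value. Of the low and middle values, 100% lay within 0.1 of a whole number. Intervals from them would cover counting error only.

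Comparisons of a KO with control used limma (trend, 6 libraries, log2 of RPKM plus 0.5, filter of 0.5 RPKM in 3 libraries). KO groups were compared in 1 fit of 12 libraries. P-values were adjusted by Benjamini-Hochberg over all genes tested, and a call needed an adjusted p no larger than 0.1 and a log2 difference of 1 or more in size, the thresholds of the study. The test and the recovery of reads were checked on simulated data. Alternatives were pseudocounts of 0.1 and 1, no filter, a filter of 1 RPKM, median-of-ratios scaling, all libraries in 1 fit, a replicate block, the library prefix as a term, voom on recovered reads and each library left out. Replicates differed by more than sampling noise, and each was counted as 1 sample. The chi-square per degree of freedom was 8.66 between Atg5 KO replicates 1 and 2 and 51.4 or more for every other pair.

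The members, lists and tests were chosen with earlier results of these data known. Values in all libraries are given for called members and for the 5 members of each class with the highest control mean, and of each pathway list at most the 4 called genes with the smallest adjusted p are named. Tools were R 4.3.3, limma 3.58.1, Python 3.11.15, numpy 2.4.6, pandas 2.3.3 and matplotlib 3.10.9.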

Additional observations from a re-analysis of the deposited data

How the results depend on the processing

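The number of chains called in Fip200 KO cells (1) was 0 with a pseudocount of 0.1, 0 without a filter, 0 with the library prefix as a term and 2 with all 12 libraries in 1 fit. With each library left out in turn it ranged from 0 to 2. It was 2 without Fip200 KO replicate 3, where 5.13% of all genes were called. In Atg5 KO cells the number (5) was 3 with all 12 libraries in 1 fit and 3 with the prefix term, and 4 to 6 with a library left out. In Atg7 KO cells (5) it was 0 with the prefix term and 3 to 6 with a library left out, the lowest without Atg7 KO replicate 1. Between KO groups (0) it was 0 to 4 with a library left out, above 0 only without Fip200 KO replicate 3. Other settings moved these counts by less than 1.5 times, and the cause was not tested. Beside the main fit, shares of all genes are given only for voom, the prefix term and the fit without Fip200 KO replicate 3. In every other setting the counts cannot be read as a result about collagen chains.

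Replicate numbers did not pair the libraries, since same-numbered deviations correlated between −0.218 and 0.0767 and 1 of 9 KO libraries correlated best with its own number. With the replicate block, 1 chain was called with Fip200 KO, 5 with Atg5 KO, 5 with Atg7 KO and 0 between KO groups. The share of all genes called with the block is not given, so these counts cannot be read as a result about collagen chains.

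Over 583 refits of 40 single-chain values, 533 kept direction and side of the threshold, 21 lost the call, 9 gained it and 20 turned in sign, all 20 among values that were not called. With the prefix term, in Fip200 KO cells, Col3a1 had 0.69, Col5a1 0.68, Col6a1 0.83, Col11a1 −0.14 and Col12a1 0.87, and Col18a1 in Atg7 KO cells 0.84. With voom, Col11a1 in Fip200 KO had −0.21 and Col12a1 in Atg7 KO 0.12. Col12a1 in Atg7 KO had 0.017 with a pseudocount of 0.1, and Col11a1 there 0.0050 with 1. With a library left out, Col5a1 ranged from −0.74 to 0.29 in Fip200 KO and −0.91 to 0.12 in Atg5 KO. Col11a1 ranged from −0.24 to 1.03 in Fip200 KO, −0.16 to 0.25 in Atg5 KO and −0.58 to 0.44 in Atg7 KO, and Col12a1 from −0.83 to 0.20 in Atg7 KO.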

Other observations

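Several chains at or near 0 reads in control had reads in KO libraries, at levels under the filter. Of the chains outside the filter, 3 of 17 in Fip200 KO, 4 of 18 in Atg5 KO and 5 of 17 in Atg7 KO cells had every KO library above every control library. Among all genes outside the filter the shares were 11.3%, 13.8% and 10.3%, and among all genes with or without the filter 11.6%, 25.5% and 17.4%. Every KO library was below every control library for 1, 1 and 0 of these chains, beside 9.4%, 14.6% and 13.8% of all genes outside the filter. Col5a2, the neighbor of Col3a1 on chromosome 1, had 0 to 3 reads in control, 3 to 14 in Fip200 KO, 8 to 44 in Atg5 KO and 5 to 23 in Atg7 KO libraries. Col22a1, a linker collagen of tissue junctions, had 0 to 1 reads in control and 2 to 73, 10 to 28 and 3 to 26 reads in the same order. Col1a1 had 4 to 11 reads in control and 26 to 50 in Atg7 KO libraries. In the fit without a filter, Col22a1 had a log2 difference of 0.39 in Atg5 KO (adjusted p = 0.0369 from limma) and Col1a1 of 0.55 in Atg7 KO cells (adjusted p = 0.0345 from limma), both below the fold threshold. These chains were picked after their values were seen.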
